A study of Homo sapiens with 22 samples.

Results

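Methylation of lysine 36 of histone H3 (H3K36) is written by a small group of SET domain enzymes and removed by Jumonji demethylases. SETD2 is the enzyme that places the third methyl group (H3K36me3) along transcribed gene bodies, and it is a tumour suppressor frequently inactivated in clear cell renal cell carcinoma. NSD1, NSD2, NSD3 and ASH1L mono- and dimethylate the same residue, KDM2A and KDM2B remove mono- and dimethylation, and KDM4A, KDM4B and KDM4C remove di- and trimethylation and also act on H3K9. The mRNA of these 10 genes, chosen by name, was examined in RNA-seq of renal proximal tubule epithelial cells (RPTEC) in which SETD2 had been inactivated and restored. All 10 were found among the 36859 rows of the deposited table, and all 10 were among the 14585 genes tested.

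The cells were hTERT-immortalized human RPTEC, with 22 libraries in 11 groups of 2 replicates. In 2% serum these were untreated WT cells, WT cells given 10 ng/ml TGF-β for 72 h, which induces an epithelial-to-mesenchymal transition, the SETD2 knockout (KO) clones KO1 and KO2, each a single clone with frameshifts on both alleles, and a line labelled KO2_Rescue. In 10% serum these were Rescue1 and Rescue2, and WT lines that carry eGFP, SOX2, OCT2 or PRRX1 after transduction and bulk selection with puromycin. Rescue1 and Rescue2 are single-cell clones of KO cells that carry a lentiviral full-length SETD2 with a FLAG tag and blasticidin resistance. KO2 is their parent by the paper's headings, and their library labels name no parent. Serum, transduction, drug selection and cloning therefore differ together between the rescue clones, the KO clones and WT, and cannot be told apart. Nothing in the labels says that replicates were separate cultures, so p-values measure only the spread between libraries, which may be technical.

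Values are normalized counts, obtained by inverting the log2 transformation of the deposited table, and a change is a difference of log2(normalized count + 1) between group means. Normalized counts added up to between 11674491 and 16758645 per library, highest in KO1. Where every library was instead scaled to the same total, the median log2 change of all genes moved to −0.39 in KO1 and −0.20 in KO2 against WT, −0.20 in TGF-β-treated WT, −0.21 in KO1 against KO2 and 0.26 in the rescue clones against KO2, and changes under equal totals are to be read against these medians. A gene passed where limma's Benjamini-Hochberg adjusted p over all 14585 genes was under 0.05. WT replicate 1 stood apart from WT replicate 2 for some lists, with 8 fibroblast markers summing to 12452 against 846, mostly COL1A1 (11919.1 against 531.9). The same 8 markers summed to 46403 and 47814 in TGF-β-treated WT, to 100073 to 236651 in the KO clones, mostly DCN, and to 830 to 1536 in the rescue clones, with 4 of 8 higher than WT in each KO clone and COL3A1 at 0 to 1.4 there. Of 6 epithelial markers 5 were lower than WT in each KO clone. Beside these marker counts, 39.8% of all tested genes passed in KO1 and 28.9% in KO2, with 20.8% and 13.7% lower. CDH1 was low already in WT, at 25.5 and 47.5 normalized counts. It was at 0 to 0.8 in the KO clones and also in the rescue clones, and at 0 and 10.2 in TGF-β-treated WT. Of 14 proximal tubule markers, 6 (LRP2, HNF4A, SLC22A6, SLC22A8, SLC34A1 and SLC5A2) stayed under 10 normalized counts in every library. Of 5 endothelial markers KDR rose in both KO clones, with 102.7 to 145.3 normalized counts against 0 and 0.8 in WT, while PECAM1 was at 0 in WT and in 3 of 4 KO libraries, and the endothelial sum reached at most 157. Leukocyte markers summed to at most 28. The part of these marker shifts in the results below was not tested.

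Low values in this table need care. Genes that every cell uses were also listed low, such as POLR2A (the largest RNA polymerase II subunit) at 0 to 116.6 and H3-3A (a histone H3.3 gene) at 11.8 to 76.9 normalized counts over the 22 libraries. The values of ASH1L and KDM4A, which lie in the same range, are therefore given as listed.

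SETD2 and NSD2 mRNA were lower than WT in both KO clones, and NSD1, NSD3 and ASH1L did not pass in either clone against WT. Of the demethylases, KDM2B and KDM4C passed in KO1 against WT, both higher, and did not pass in KO2. In KO1 against WT 4 of the 10 genes passed, 2 higher and 2 lower, where 39.8% of all tested genes passed (19.0% higher and 20.8% lower). In KO2 against WT 2 passed, both lower, where 28.9% of all genes passed and 13.7% were lower. In TGF-β-treated against untreated WT 1 passed, lower, where 17.7% passed and 9.22% were lower. Between the clones, KO1 against KO2, 1 passed, higher, where 16.0% passed and 6.44% were higher. In the rescue clones against KO2 4 passed, 3 higher and 1 lower, where 34.5% passed (16.2% higher and 18.3% lower). In these 5 comparisons the share of the 10 genes that passed was near or under that of all genes, and what follows concerns single genes. The map of log2 changes shows all 12 comparisons.

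**Figure D1:**
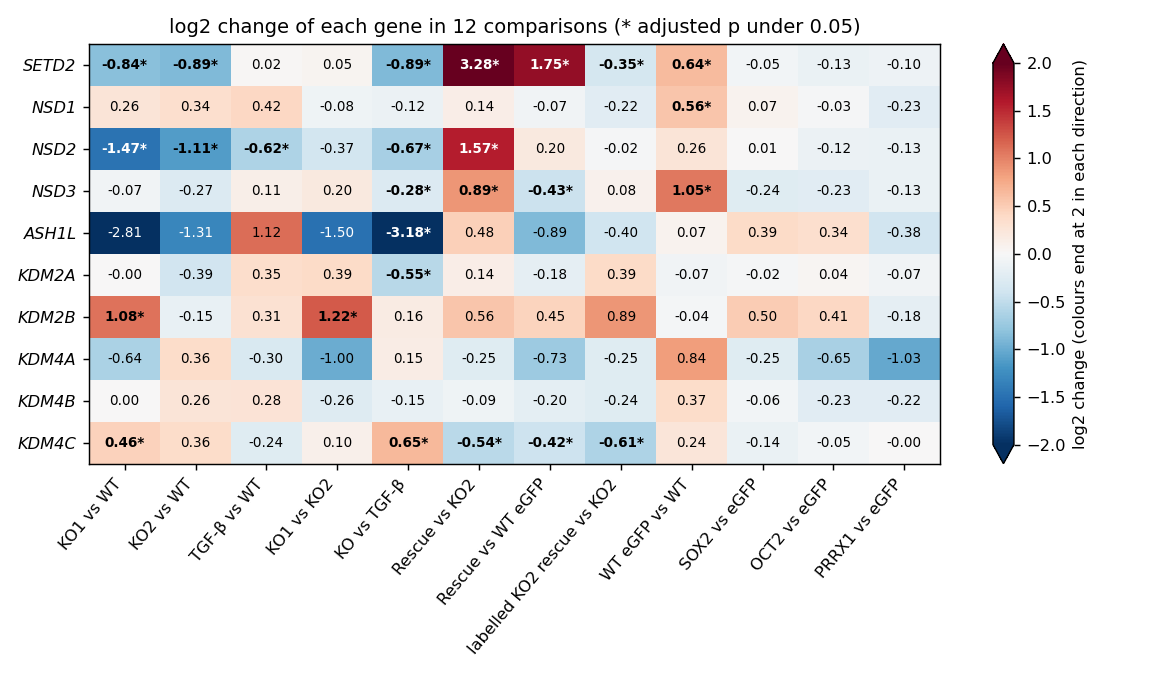
Log2 change of mean log2(normalized count + 1), first group minus second, for each of the 10 genes (rows) in 12 comparisons (columns); bold values with an asterisk have an adjusted p under 0.05. NSD2 is lower in KO1 (−1.47) and KO2 (−1.11) and higher in the rescue clones against KO2 (1.57), and no gene passed in the SOX2, OCT2 or PRRX1 lines; the large values of ASH1L rest on counts between 0 and 35.11.

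SETD2 (ENSG00000181555) lies on the minus strand at GRCh38 chr3:47016428-47164113. The guide used to make the KO clones is shown because it marks where the coding sequence was cut. It matched the plus strand at chr3:47122997-47123016, in coding sequence of exon 3 of 21. Below, the plus strand of the reference is printed 5′ to 3′ from 47122977 to 47123039, with the 20-base guide target and its PAM in capitals.
SETD2 guide site: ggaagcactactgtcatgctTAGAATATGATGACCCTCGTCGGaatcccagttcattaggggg

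Cleavage 3 bases from the PAM falls after 1622 of the 7692 coding bases (21.1%), in codon 541. The WT libraries held 1852 and 2061 normalized counts of SETD2, and TGF-β-treated WT held 1955 and 2021. KO1 had 1046 and 1130, and KO2 had 1050 and 1052, all below WT without overlap. For KO1 the log2 change was −0.84 (SE 0.07, adjusted p = 1.3e-07), or 0.557 of the WT level. For KO2 it was −0.89 (adjusted p = 1.3e-07), or 0.538 of the WT level, so mRNA of the mutated gene was still present. TGF-β left SETD2 within the spread of WT (log2 change 0.02, 95% interval −0.12 to 0.17). The clones did not differ from each other beyond their spread (0.05, interval −0.10 to 0.20).

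The rescue clones held 10240 and 10369 (Rescue1) and 10445 and 9764 (Rescue2) normalized counts of SETD2, the highest of all libraries, where reads of the transgene and of the endogenous gene are counted together. Against KO2 the log2 change was 3.28 (SE 0.06, adjusted p = 3.1e-14). Against WT cells with eGFP, which shared their serum, it was 1.75 (adjusted p = 3.5e-11), in a comparison where 3 of the 10 genes passed, 1 higher and 2 lower, beside 29.5% of all genes (14.9% higher and 14.6% lower).

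The line labelled KO2_Rescue had 834.5 and 819.6 normalized counts of SETD2, below both KO2 libraries (log2 change −0.35, SE 0.07, adjusted p = 0.00382). Its SETD2 mRNA therefore goes against its label, and it is called the labelled KO2 rescue here. Other genes of this line did differ from KO2. Of 6 epithelial markers 3 passed as higher, of 8 fibroblast markers 1 as lower, and of 15 cell cycle genes 4 as higher. The others in these 3 lists did not pass. In this comparison 2 of the 10 genes passed, both lower, where 10.3% of all genes passed and 5.38% were lower. When only the 4 libraries of both groups were fitted, SETD2 no longer passed (adjusted p = 0.0532). The headings KO1 and KO2 in the published expression table match, by value, the libraries labelled KO2 and KO1, and the library labels are used throughout. The parent of Rescue1 and Rescue2 may therefore be the clone whose libraries are labelled KO1. With KO1 as reference, the rescue clones changed by 3.23 for SETD2, 1.94 for NSD2, 0.69 for NSD3 and −0.64 for KDM4C, and all of these passed.

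Transduced WT cells in 10% serum held more SETD2 than WT in 2% serum. The 8 libraries of the eGFP, SOX2, OCT2 and PRRX1 lines lay between 2702 and 3128 and the 2 WT libraries at 1852 and 2061, and eGFP differed from WT by a log2 change of 0.64 (SE 0.07, adjusted p = 7.6e-06). This was 1 of 3 genes that passed in eGFP against WT, all higher, where 26.6% of all genes passed and 13.1% were higher. With only the 4 libraries of both groups in the fit, its adjusted p was 0.0522, and with a trend of transcript length and GC content removed the change was 0.26 (adjusted p = 0.00431). Ordered by mean, SETD2 rose from the labelled KO2 rescue (827) through KO2 (1051) and KO1 (1088), WT (1956) and TGF-β-treated WT (1988), the transduced WT lines (2770 to 3037), to Rescue2 (10105) and Rescue1 (10305). Neighbours KO2 and KO1, and WT and TGF-β, did not differ beyond their spread.

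**Figure D2:**
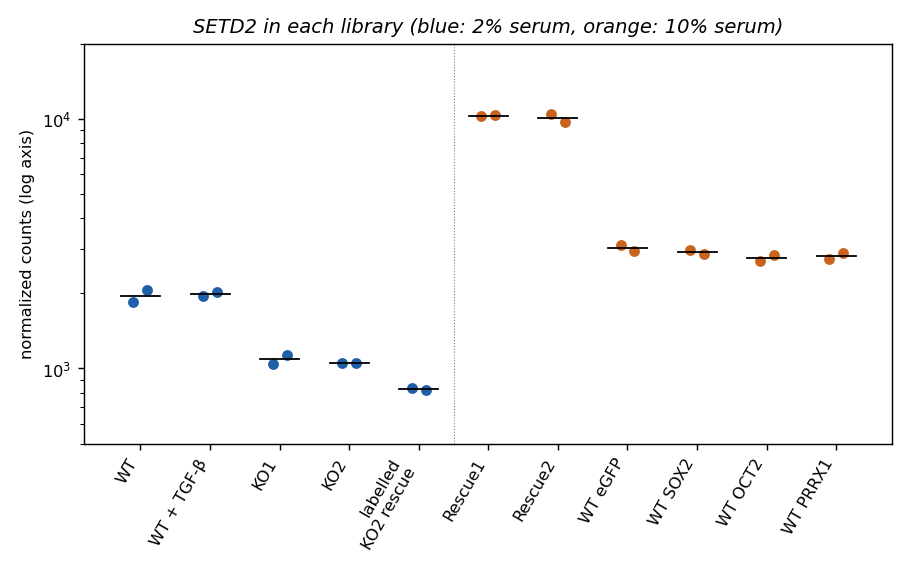
SETD2 normalized counts on a log axis in each of the 22 libraries (points) with the mean of each group of 2 (bars); blue groups were in 2% and orange groups in 10% serum. The KO libraries lie at 1046 to 1130, below WT, the labelled KO2 rescue at 819.6 and 834.5, below KO2, and the rescue clones at 9764 to 10445.

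NSD2 (ENSG00000109685, chr4:1871393-1982207, plus strand), the dimethyltransferase also known as WHSC1 or MMSET, was the member other than SETD2 that fell in both KO clones and was higher than KO2 in the rescue clones. It had 1229 and 1593 normalized counts in WT. KO1 had 497.7 and 507.8, and KO2 had 685.7 and 614.9, so that all 4 KO libraries lay below both WT libraries. KO1 differed from WT by a log2 change of −1.47 (SE 0.15, adjusted p = 2.2e-06), or 0.360 of the WT level. KO2 differed from WT by −1.11 (SE 0.15, adjusted p = 6.0e-05), or 0.465 of the WT level. The clones differed from each other by −0.37, which did not pass (adjusted p = 0.125) but passed with equal totals (−0.55, adjusted p = 0.0237).

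Rescue1 held 1914 and 1596 and Rescue2 2228 and 2050 normalized counts of NSD2, all above KO2. The log2 change from KO2 was 1.57 (SE 0.13, adjusted p = 3.7e-07). The eGFP line in the same serum had 1919 and 1472, and the rescue clones overlapped it (log2 change 0.20, 95% interval −0.08 to 0.49, adjusted p = 0.295). With the eGFP minus WT difference subtracted from the rescue minus KO2 difference, a contrast chosen after the data were seen, 1.31 remained (SE 0.20, adjusted p = 1.8e-04), where 30.5% of all genes passed. The labelled KO2 rescue, with 664.4 and 616.9, lay in the range of KO2 (−0.02, interval −0.35 to 0.31).

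TGF-β-treated WT, with SETD2 within the spread of WT, had 823.6 and 1008 normalized counts, below both WT libraries. The log2 change was −0.62 (SE 0.15, adjusted p = 0.0115). This call rests on single libraries, since it was lost without WT replicate 2 (−0.43, adjusted p = 0.144) or without TGF-β replicate 1 (−0.47, adjusted p = 0.13), and also with only these 4 libraries fitted (adjusted p = 0.205). The KO clones together lay below TGF-β-treated WT by −0.67 (SE 0.13, adjusted p = 0.00101).

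**Figure D3:**
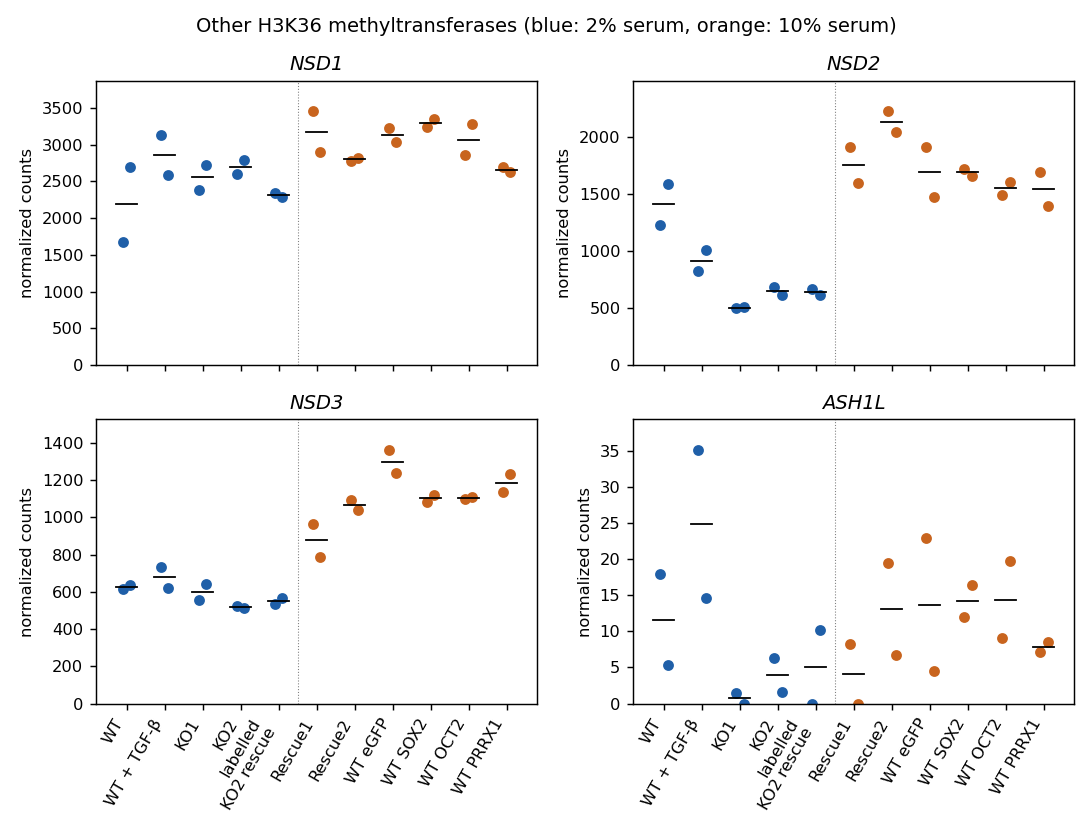
Normalized counts of NSD1, NSD2, NSD3 and ASH1L in each of the 22 libraries (points) with group means (bars), on linear axes that start at 0 and differ between panels; blue is 2% and orange 10% serum. NSD2 is lowest in KO1, KO2 and the labelled KO2 rescue (497.7 to 685.7), NSD3 is higher in every 10% serum library (789 to 1363) than in any 2% serum library (515.2 to 734.6), and ASH1L stays at or under 35.11. The 10% serum libraries were also transduced and drug-selected.

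Proliferation genes moved along with NSD2 in part. The 15 cell cycle genes that were found and tested (among them MKI67, CCNB1, CDK1 and AURKB) summed to 13164 and 19164 normalized counts in WT and to 3781 and 4285 in TGF-β-treated WT. In KO1 they summed to 1443 and 1414, and in KO2 to 2552 and 3012. Of these 15 genes 13 fell in KO1 (median log2 change −3.79), 12 in KO2 (−2.40) and 8 with TGF-β (−1.72), and 11 rose in the rescue clones against KO2 (2.21), while the median of all tested genes lay between −0.03 and 0.00. Of all tested genes 20.8%, 13.7% and 9.22% were lower and 16.2% higher in these comparisons. PCNA (66.7 and 51.3 in WT, 121.3 and 167.7 in KO1) and MCM2 (7.2 and 4 in WT, 9.5 and 76 in KO1), both at low values, did not fall in KO1. The part of the cell cycle genes in the NSD2 result was not tested.

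The 2 measures did not keep 1 order. The labelled KO2 rescue summed to 4788 and 4691 for the cell cycle genes with NSD2 at 664.4 and 616.9, and TGF-β-treated WT to 3781 and 4285 with NSD2 at 823.6 and 1008. The eGFP line summed to 5489 and 6130 with NSD2 at 1919 and 1472, a range of NSD2 that overlaps WT although the WT cell cycle sums lie above it. Among the tested genes, the 1 whose log2 values ran closest to NSD2 over the 22 libraries was NASP, a chaperone of histone H3, with Pearson's r of 0.98 (Spearman's rho 0.85). Without the rescue clones r was 0.97 over 18 libraries. The points share groups, serum and scaling, so r is a description.

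**Figure D4:**
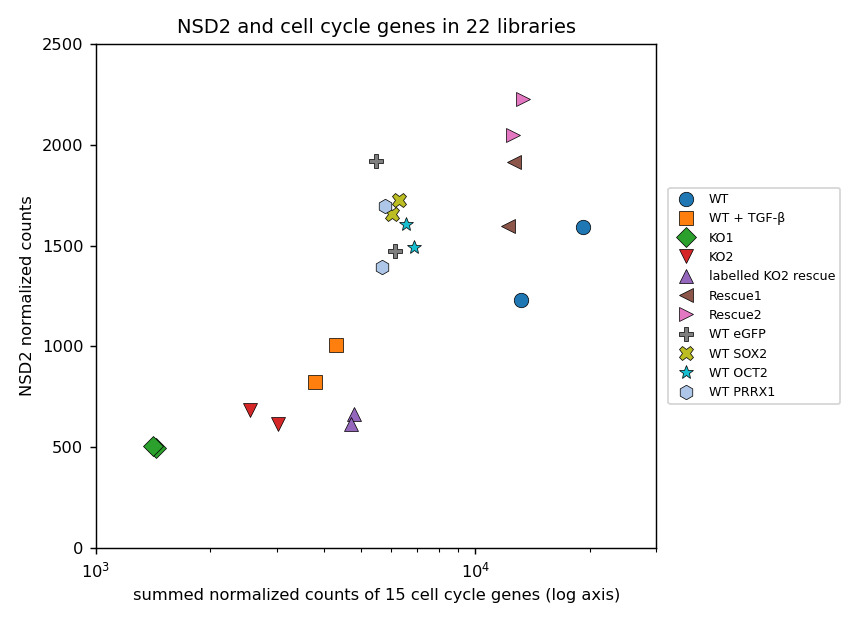
NSD2 normalized counts against the summed normalized counts of 15 cell cycle genes (log axis) in each of the 22 libraries, with a symbol and colour for each group. KO1 sits lowest on both axes, KO2 and the labelled KO2 rescue overlap in NSD2, and the labelled KO2 rescue (sums 4691 and 4788) lies far below the eGFP line (sums 5489 and 6130) in NSD2.

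The bases upstream of NSD2 are shown because letters known from promoters of cell cycle genes lie there. Letters of 5 motifs were searched on both strands of the 250 bases upstream of each RefSeq transcript start (GRCh38.p14), a choice made with the values known. The E2F letters TTTCCCGC, TTTGGCGC, TTTCGCGC or TTTGGCGG were present in 2.83% of 35116 promoters. Of 17 such windows of 9 members (all but NSD3) they were found in that of NSD2 alone, 77 bases upstream of the start. NSD2 also held CCAAT 96 bases upstream, present in 32% of promoters and in windows of KDM4A, NSD1, KDM2A, KDM2B and KDM4B, and the letters TTTGAA of the cell cycle homology region 135 bases upstream, present in 13.3%. The GC box GGGCGG (42.6%) and the ETS letters CCGGAAG (8.52%) were the other motifs. NSD2 held the GC box, on either strand, 204, 166, 25 and 10 bases upstream. Windows of SETD2, NSD1, ASH1L, KDM2A, KDM2B and KDM4B held it as well. A match is a description of letters, not a site of binding. The plus strand is printed 5′ to 3′ from chr4:1871143-1871392. The E2F, CCAAT and TTTGAA matches are in capitals, and the GC boxes are left in lower case.
NSD2 promoter: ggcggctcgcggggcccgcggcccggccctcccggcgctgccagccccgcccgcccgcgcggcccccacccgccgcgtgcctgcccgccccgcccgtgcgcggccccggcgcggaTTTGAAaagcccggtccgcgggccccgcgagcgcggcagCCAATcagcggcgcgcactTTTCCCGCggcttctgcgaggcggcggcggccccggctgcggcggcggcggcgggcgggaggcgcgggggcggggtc

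NSD3 (ENSG00000147548, also known as WHSC1L1), a paralogue of NSD2, separated the libraries in 2% serum from those in 10% serum. The latter were all transduced and drug-selected as well, so serum cannot be told apart from these. It had 615.8 and 635.5 normalized counts in WT, 556.4 and 640.5 in KO1, 524.5 and 515.2 in KO2, and 534.6 and 566.1 in the labelled KO2 rescue. The 10 libraries in 2% serum reached at most 734.6 and the 12 in 10% serum at least 789. The eGFP line had 1363 and 1237, a log2 change from WT of 1.05 (SE 0.11, adjusted p = 7.0e-06), or 0.64 (adjusted p = 0.00142) with the length and GC trend removed.

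The rescue clones had 966.3 and 789 (Rescue1) and 1092 and 1042 (Rescue2) normalized counts of NSD3, a log2 change from KO2 of 0.89 (SE 0.10, adjusted p = 4.7e-06). Against eGFP in the same serum they were lower, by −0.43 (SE 0.10, adjusted p = 0.00368), a call lost without eGFP replicate 1 (−0.36, adjusted p = 0.0666). After subtraction of the eGFP minus WT difference the rescue minus KO2 difference was −0.16 (SE 0.15, adjusted p = 0.461), so the sign turned. The change in KO1 was −0.07 (95% interval −0.31 to 0.17) and that in KO2 −0.27 (−0.51 to −0.03, adjusted p = 0.0919). With equal totals NSD3 passed as lower in both, with −0.48 for KO1 (adjusted p = 0.00313) and −0.49 for KO2 (adjusted p = 0.00357), against medians of all genes of −0.39 and −0.20. The tested gene closest to NSD3 over the 22 libraries was HES1, a Notch target and transcriptional repressor, with r of 0.96, and 0.97 without the rescue clones.

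NSD1 (ENSG00000165671, chr5:177131830-177300213, plus strand), the dimethyltransferase mutated in Sotos syndrome, had its widest duplicate in WT, at 1669 and 2701 normalized counts. All other libraries lay between 2283 and 3449. It did not pass in either KO clone, with log2 changes of 0.26 in KO1 (95% interval −0.09 to 0.62) and 0.34 in KO2 (−0.01 to 0.70). The rescue clones (2781 to 3449) overlapped KO2 (2597 and 2793) and eGFP (3229 and 3030), and with equal totals NSD1 passed as higher than KO2 there (0.45, adjusted p = 0.0336). In the main scaling NSD1 passed only in eGFP against WT (0.56, SE 0.17, adjusted p = 0.0211). That call was lost with the length and GC trend removed (0.28, adjusted p = 0.192), without WT replicate 1 (0.21, adjusted p = 0.279), without eGFP replicate 1 (0.51, adjusted p = 0.118) and without eGFP replicate 2 (0.60, adjusted p = 0.0549).

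ASH1L (ENSG00000116539, chr1:155335268-155563162, minus strand), a Trithorax group methyltransferase, was listed at 35.11 normalized counts or less in every library. It had 17.88 and 5.308 in WT and 35.11 and 14.57 in TGF-β-treated WT. KO1 had 1.414 and 0, and KO2 had 6.333 and 1.652. The rescue clones held 8.189 and 0 (Rescue1) and 19.45 and 6.67 (Rescue2). In KO1 both libraries lay under both WT libraries without passing the test (adjusted p = 0.0869), and KO2 overlapped WT.

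KO against TGF-β-treated WT gave the largest number of calls among these genes, 6 of 10 (1 higher and 5 lower), where 36.3% of all genes passed (18.1% higher and 18.2% lower). SETD2 was lower in the KO clones by −0.89 (SE 0.06, adjusted p = 1.4e-08), and NSD2 and KDM4C are described with their own values. The other 3 calls depended on single libraries. ASH1L (adjusted p = 0.0308) was lost without TGF-β replicate 1 (0.215), TGF-β replicate 2 (0.0648), KO1 replicate 2 (0.0741) or KO2 replicate 2 (0.0833). NSD3 (−0.28, adjusted p = 0.0353), whose groups overlapped, was lost without TGF-β replicate 1 (−0.16, adjusted p = 0.368), KO1 replicate 1 (0.0839), KO2 replicate 1 (0.0592) or KO2 replicate 2 (0.07). KDM2A (−0.55, adjusted p = 0.0219), whose groups also overlapped, was lost without TGF-β replicate 1 (−0.38, adjusted p = 0.237), KO1 replicate 2 (0.0689) or KO2 replicate 1 (0.0549).

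Among the demethylases KDM4C (ENSG00000107077, chr9:6720863-7175648, plus strand), which acts on H3K9 and H3K36, was the gene that passed in the largest number of comparisons. It had 481.3 and 551.6 normalized counts in WT, 656 and 764.6 in KO1, and 637.8 and 687.5 in KO2. Both clones lay above WT without overlap. KO1 passed against WT with a log2 change of 0.46 (SE 0.15, adjusted p = 0.0271). KO2 did not pass, at 0.36 (SE 0.15, adjusted p = 0.0946). The clones did not differ from each other beyond their spread (0.10, 95% interval −0.23 to 0.42).

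The KO1 call of KDM4C was lost without WT replicate 1 (0.36, adjusted p = 0.161) or KO1 replicate 2 (0.35, adjusted p = 0.17). It was also lost with equal totals (0.05, adjusted p = 0.84), a value above the median of all genes at that scaling. TGF-β-treated WT had 380 and 497.9 normalized counts, a log2 change from WT of −0.24 that did not pass (adjusted p = 0.344) and passed with equal totals (−0.48, adjusted p = 0.0484), and the KO clones together lay above it by 0.65 (SE 0.13, adjusted p = 0.00117).

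KDM4C was lower than KO2 in the rescue clones and in the labelled KO2 rescue. Rescue1 had 389 and 456, Rescue2 466.1 and 520.5, and the labelled KO2 rescue 422 and 446.2 normalized counts, all below KO2. The log2 changes from KO2 were −0.54 in the rescue clones (SE 0.13, adjusted p = 0.00534) and −0.61 in the labelled KO2 rescue (SE 0.15, adjusted p = 0.0189). The first was lost without KO2 replicate 2 (−0.48, adjusted p = 0.0613) and with equal totals (−0.24, adjusted p = 0.211), and the second without any 1 of its 4 libraries (−0.66 to −0.55, adjusted p = 0.0632 to 0.122). With the eGFP minus WT difference subtracted, the rescue minus KO2 difference was −0.78 (SE 0.20, adjusted p = 0.00877).

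Against the eGFP line (560.6 and 659) the rescue clones were also lower in KDM4C, by −0.42 (SE 0.13, adjusted p = 0.0278). This was lost without Rescue1 replicate 1 (−0.36, adjusted p = 0.0802), Rescue2 replicate 1 (−0.38, adjusted p = 0.0761) or eGFP replicate 2 (−0.30, adjusted p = 0.24). The gene closest to KDM4C over the 22 libraries was SIK3, a salt-inducible kinase, with r of 0.90, and 0.88 without the rescue clones.

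KDM2B (ENSG00000089094, chr12:121429096-121581023, minus strand) binds unmethylated CpG islands and recruits a variant Polycomb repressive complex 1. It was the member that differed between the KO clones. It had 365.2 and 427.2 normalized counts in KO1, 224.5 and 126.5 in KO2, and 152.1 and 229.4 in WT. KO1 lay above WT (log2 change 1.08, SE 0.34, adjusted p = 0.0201) and above KO2 (1.22, SE 0.34, adjusted p = 0.0233), and KO2 overlapped WT (−0.15, 95% interval −0.87 to 0.58).

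Both KDM2B calls rested on single libraries. KO1 against WT was lost without WT replicate 1 (0.78, adjusted p = 0.162) or KO1 replicate 2 (0.96, adjusted p = 0.101), and with equal totals (0.67, adjusted p = 0.137). KO1 against KO2 was lost without KO1 replicate 2 (1.11, adjusted p = 0.117) or KO2 replicate 2 (0.81, adjusted p = 0.234). The labelled KO2 rescue had 295.9 and 333.5, above KO2 (0.89, adjusted p = 0.123), and the rescue clones 204.7 to 327.7 (0.56, adjusted p = 0.166, and 0.86, adjusted p = 0.0343, with equal totals). The eGFP duplicates spread from 129.8 to 254.2, so the spread within that group was wide.

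Genes of the KDM2B complex were part of a list of 10 partners of H3K36 enzymes and demethylases, of which 9 were tested. In KO1 against WT 4 passed higher and 2 lower (median log2 change 0.26), and in KO2 2 passed, both higher (0.13), beside 39.8% and 28.9% of all genes passing. BCORL1, a subunit of that complex, had 609 and 701.8 normalized counts in KO1, 350.5 and 293.9 in KO2, and 178.2 and 188.2 in WT, a log2 change in KO1 of 1.83 (SE 0.21, adjusted p = 5.1e-06). It also rose in eGFP against WT, by 1.05 (adjusted p = 0.00156). PCGF1, the Polycomb group ring finger of the complex, had 229.1 and 196 in KO1 against 92.3 and 90.5 in WT (1.20, adjusted p = 0.0391). RNF2, its ubiquitin ligase, was lower in KO1 (−1.50, adjusted p = 0.0398), with 250 in replicate 1 and 40.1 in replicate 2, of which the first lies within the WT range of 236 to 348.7.

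**Figure D5:**
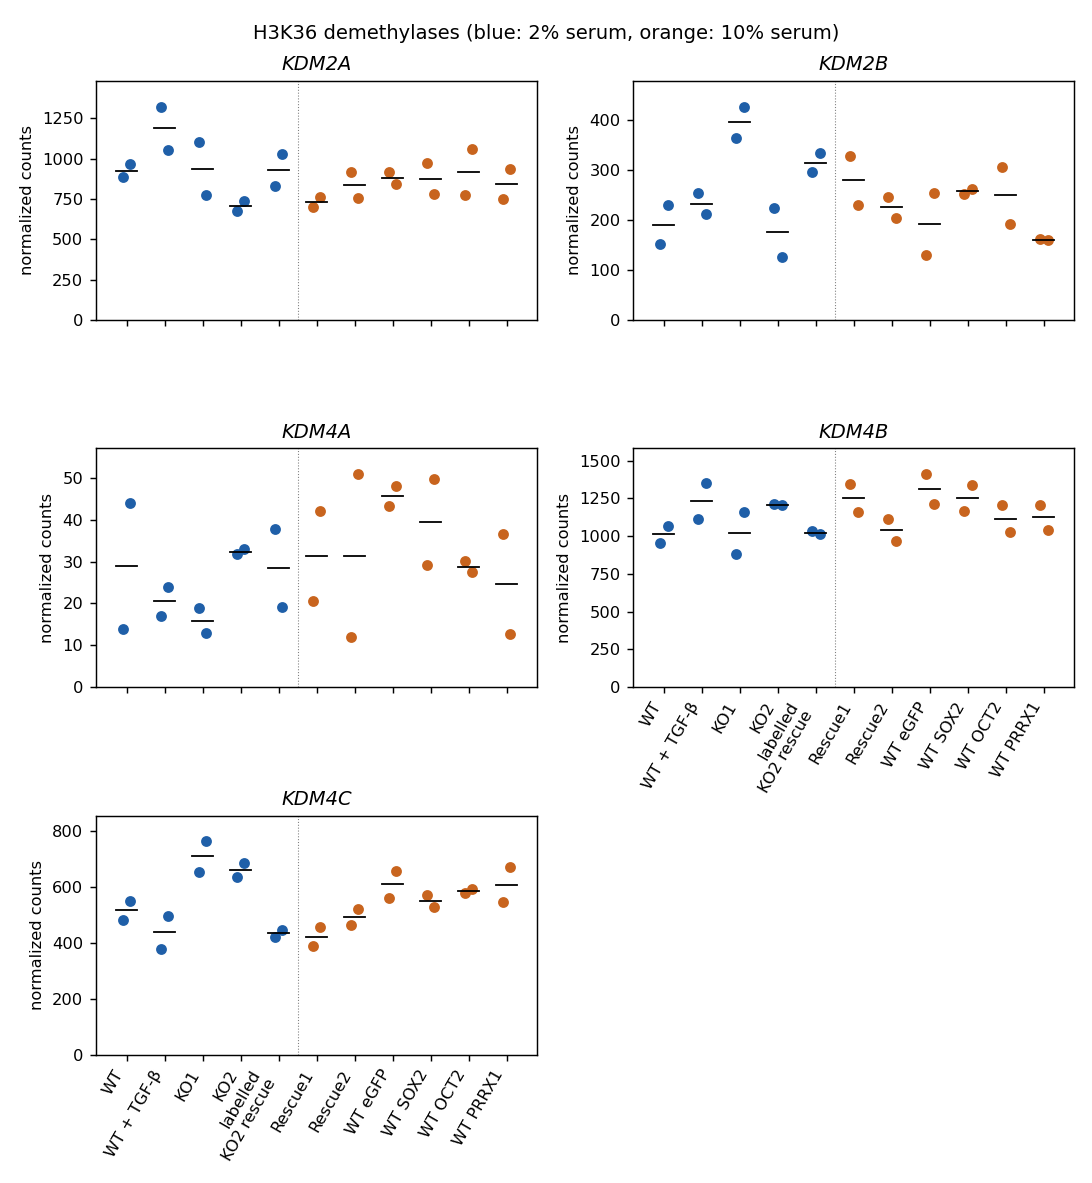
Normalized counts of KDM2A, KDM2B, KDM4A, KDM4B and KDM4C in each of the 22 libraries (points) with group means (bars), on linear axes that start at 0 and differ between panels; blue is 2% and orange 10% serum. KDM2B is highest in KO1 (365.2 and 427.2), and KDM4C is higher in KO1 and KO2 (637.8 to 764.6) than in WT, the rescue clones and the labelled KO2 rescue. The eGFP (560.6 and 659) and PRRX1 (546.7 and 672) lines overlap KO2 in KDM4C.

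KDM2A, KDM4B and KDM4A did not pass in either KO clone against WT. KDM2A (ENSG00000173120, chr11:67119263-67258082), the CpG island demethylase related to KDM2B, ranged from 674 to 1322 normalized counts over the 22 libraries, lowest in KO2 replicate 1 and highest in TGF-β replicate 1. Its log2 change was −0.00 in KO1 (95% interval −0.43 to 0.42) and −0.39 in KO2 (−0.82 to 0.03). KDM4B (ENSG00000127663, chr19:4969113-5153598) ranged from 884.6 to 1412, with changes of 0.00 in KO1 (−0.32 to 0.32) and 0.26 in KO2 (−0.06 to 0.58). With equal totals KDM2A passed as lower in KO2 (−0.62, adjusted p = 0.0309) and KDM4B as lower in KO1 (−0.41, adjusted p = 0.0374), the latter near the median of all genes. Without that scaling KDM4B passed in none of the 12 comparisons. KDM4A (ENSG00000066135, chr1:43650149-43705518) was listed at 11.89 to 50.91, and its duplicates differed by as much as 11.89 and 50.91 in Rescue2, so that its interval in KO1 spanned −2.19 to 0.90.

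SOX2, OCT2 or PRRX1, transcription factors delivered into WT cells, changed none of the 10 genes past the threshold against eGFP. With limma 0 of 10 passed in each line, and 0 of 10 at an unadjusted p under 0.05, where 0.0206%, 0.0411% and 0.0480% of all genes passed. For SETD2 the differences from eGFP were −0.05 (95% interval −0.20 to 0.09) with SOX2, −0.13 (−0.28 to 0.01) with OCT2 and −0.10 (−0.25 to 0.04) with PRRX1. For NSD2 they were 0.01 (−0.32 to 0.34), −0.12 (−0.45 to 0.21) and −0.13 (−0.46 to 0.20).

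Levels were compared between genes only per kilobase of the MANE Select transcript, with the limit on low values given above. In WT, SETD2 had 229 ± 17.3 normalized counts per kb (SD, n = 2), NSD2 187 ± 34, KDM4B 181 ± 14 and NSD1 168 ± 55.9. These were followed by KDM2A at 125 ± 7.68, KDM4C at 119 ± 11.5, NSD3 at 58.1 ± 1.29 and KDM2B at 35.9 ± 10.3, with KDM4A at 6.47 ± 4.74 and ASH1L at 0.963 ± 0.738. NSD2, KDM4B and NSD1 did not differ beyond their spread. In KO1 NSD2 stood at 66.5 ± 0.949 and KDM4C at 164 ± 17.7 per kb, so that KDM4C lay above NSD2, the reverse of WT. KO2 showed the same order, with 86 ± 6.62 for NSD2 and 153 ± 8.11 for KDM4C.

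Other enzymes linked to H3K36 methylation were taken from a list of 10 genes, of which 8 were tested. In KO1 1 passed higher and 2 lower, in KO2 2 passed, both lower, and in the rescue clones against KO2 2 passed, both higher, beside 39.8%, 28.9% and 34.5% of all genes. SETMAR, a SET domain protein fused to a transposase and reported to dimethylate H3K36, was the one called by fold. It had 319.9 and 280.9 normalized counts in WT, 65.6 and 118.1 in KO1 and 122.8 and 127.7 in KO2, with log2 changes of −1.76 (SE 0.24, adjusted p = 3.0e-05) and −1.25 (SE 0.24, adjusted p = 9.3e-04). The rescue clones had 200.4 to 260.6.

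Of 14 tested transcription elongation factors, which travel with RNA polymerase II as SETD2 does, 2 rose and 2 fell in KO1 and 1 rose and 1 fell in KO2, without a log2 change over 1, again beside 39.8% and 28.9% of all genes. CCNT1, the cyclin of the elongation kinase P-TEFb, was higher in the rescue clones than in KO2 (2.22, SE 0.58, adjusted p = 0.00799). It was also higher in eGFP than in WT (2.57, SE 0.67, adjusted p = 0.0101). The WT duplicates lay far apart, at 11 and 97.2 normalized counts against 243.9 and 168.6 in eGFP, so the size of that change leans on WT replicate 1. In both comparisons transduction and drug selection differ together with serum. Of the 2 tested H3.3 genes, 1 passed higher and 1 lower in KO1. H3-3A, named above among low values that need care, had 76.9 and 69.6 normalized counts there against 28.6 and 24.8 in WT (1.43, adjusted p = 0.0288). H3-3B, which has far larger counts, was the lower gene, with 7586.2 and 5791.2 in KO1 against 10186.1 and 12100.8 in WT.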

How the data were processed

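The 22 RNA-seq libraries were quantified by the authors with salmon 1.9.0 against Ensembl release 94 cDNA (GRCh38) and processed with deseq2 1.26.0. The authors deposited log2 values for 36859 genes. Every library has 11.32 as its lowest deposited log2 value, taken as a count of 0, and normalized counts were obtained by undoing a variance-stabilizing transformation, a step read from the values. Read depth is unknown, so counting intervals are not given. Positions, transcript lengths and symbols came from GENCODE release 44 and promoters from RefSeq.

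Testing used limma 3.58.1 in R 4.3.3 on log2(normalized count + 1), with all libraries fitted together, 1 mean per group, and a minimum of 10 normalized counts reached in 2 or more libraries. A gene called by fold also had an absolute log2 change over 1. In data simulated for KO1 against WT over 14585 genes, 70 of 100 genes changed by a log2 size of 2 and 44 of 100 changed by 1 passed, with 8 unchanged genes. The 10 genes, lists and motifs were chosen with earlier results of these data known. Named genes were the 10 members, up to 3 called genes per list and comparison, and the gene closest to each member.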

Additional observations from a re-analysis of the deposited data

Results flagged for a closer look

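KDM2B was flagged because the effect of SETD2 knockout on it differed between the clones. The log2 change from WT in KO1 minus that in KO2 was 1.22 (SE 0.34, adjusted p = 0.0233 by limma), with 365.2 and 427.2 normalized counts in KO1 against 224.5 and 126.5 in KO2. All KO1 libraries lay above all KO2 libraries, and each clone is a single isolate. With only the libraries of both clones in the limma fit, the difference did not pass (adjusted p = 0.204). It was 1.11 without KO1 replicate 2 and 0.81 without KO2 replicate 2.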

How the results depend on the processing

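Alternatives were computed for the 12 counts of members passing and for each member that passed. Of the counts, 169 alternative values stayed within 1.5 times the main count and 19 did not. Of the log2 changes, 374 kept their direction and side of the threshold, 50 kept the direction but no longer passed, and 1 turned sign, that of NSD3 in the rescue clones against KO2 at −0.16 with the eGFP minus WT difference subtracted. The cause was not tested. Where just the groups compared were fitted, 2 genes passed in KO1 against WT, 0 with TGF-β, 0 in KO1 against KO2, 1 in the labelled KO2 rescue against KO2 and 1 in eGFP against WT, where fewer samples set the spread. With equal totals for all libraries 4 passed in KO2 against WT, 2 with TGF-β and 2 in KO1 against KO2, and with a trend of length and GC content removed 3 passed in KO1 against KO2. In KO1 against WT equal totals kept the count at 4 but exchanged KDM2B and KDM4C for NSD3 and KDM4B. Leaving out 1 library gave 2 to 5 passing genes in KO1 against WT, 0 to 1 with TGF-β, 0 to 1 in KO1 against KO2, 3 to 5 in KO against TGF-β, and 1 in the labelled KO2 rescue against KO2. Without the libraries labelled KO2 rescue, an alternative chosen after the data were seen, no count or call changed. Same-numbered deviations correlated at −0.14 to 0.10 over 55 pairs of groups, so no large effect shared by replicate number was seen. These values cannot show whether same-numbered libraries were prepared together. With a replicate block 4 genes passed in KO1 against WT, 3 in KO2 against WT and 1 with TGF-β.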

Other observations

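Enzymes of other histone marks were counted from a list of 33 genes, all tested. In KO1 against WT 7 rose and 6 fell, in KO2 5 rose and 5 fell, and with TGF-β 5 rose and 4 fell, with medians of 0.07, 0.20 and 0.19. Of all genes 39.8%, 28.9% and 17.7% passed in these comparisons. EZH2, the H3K27 methyltransferase, had 876.2 and 1013.9 normalized counts in WT, and was lower in TGF-β-treated WT too, at 433.4 and 462.1. It had 329.2 and 363.6 in KO1, 288 and 298.6 in KO2, and 249.1 and 216.2 in the labelled KO2 rescue. The rescue clones had 758.1 to 851.1. By limma KO1 differed from WT by a log2 change of −1.44 (adjusted p = 1.2e-07) and KO2 by −1.68 (adjusted p = 4.3e-08). SUV39H2, an H3K9 methyltransferase, was lower than WT in KO1 (−1.68) and KO2 (−1.78) and higher in the rescue clones than in KO2 (2.38, adjusted p = 3.0e-06). KDM6B, the H3K27 demethylase, rose with TGF-β by 2.00 (adjusted p = 2.7e-05).

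The gene whose log2 values ran closest to SETD2 over the 22 libraries was ENC1 (r of 0.95, and 0.89 without the rescue clones). For NSD1 it was HECTD4 (0.84), for KDM2A CDC42BPB (0.70), for KDM2B MGRN1 (0.76), for KDM4A IGKV1OR-3 (0.77), for KDM4B PLEKHA1 (0.67) and for ASH1L an unnamed gene, ENSG00000274741 (0.78).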
